A study of Mus musculus with 6 samples.

Results

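Transcripts of fatty acid uptake and oxidation and of the tricarboxylic acid (TCA) cycle were compared between embryonic mouse hearts that lacked RBPMS and RBPMS2 in cardiomyocytes and littermate control hearts. The genes were chosen by name: 43 genes were listed, and the 42 with a mean of at least 10 normalized reads over the 6 hearts were kept, of 15556 such genes among 45706 in the table. They comprise 28 genes of fatty acid uptake and oxidation and 14 genes of the TCA cycle. The gene left out was Ucp3, a mitochondrial uncoupling protein, at 4, 4 and 4 normalized reads in control hearts, against 2, 5 and 4 in knockout hearts. The lowest member kept was Cpt1b, at a mean of 322.

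All 6 mice were C57BL6/J and carried floxed Rbpms and floxed Rbpms2 on both chromosomes. The 3 knockouts also carried Cre under the aMyHC (alpha-myosin heavy chain) promoter, which drives it in cardiomyocytes, so other cells of these hearts keep both genes. No Cre is named for the 3 controls, yet their titles also carry the aMyHC name, so the labels do not settle whether they carry the transgene. If they do not, deletion and transgene cannot be told apart. Neither the embryonic day nor the number of hearts in each library is stated in the labels, so p-values measure the spread between these 6 samples. Values are normalized reads, that is, reads assigned to a gene and scaled by the authors with 1 factor for each heart.

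Depth before that division was estimated at 12960709 reads (control replicate 3) to 25837261 reads (knockout replicate 1). Rbpms counted 6998, 3868 and 7656 in control hearts, against 1134, 1117 and 852 in knockout hearts, and thus fell by 2.53 as a log2 fold change (SE 0.22, limma adjusted p = 0.000325). Rbpms2 counted 1711, 1362 and 1998 against 879, 1003 and 911, and fell by 0.84 (SE 0.12, limma adjusted p = 0.00207). Both falls have the direction that the labels imply, with Rbpms at 16.8% and Rbpms2 at 55.1% of the control mean. These RNA levels do not by themselves show loss of either protein. Cardiomyocyte markers were abundant in all 6 hearts, with a summed value of 890463 to 1096410 over 10 genes, whereas 4 adipocyte markers summed to between 0 and 2. By Xist and Y-linked genes, control replicates 1 and 3 and knockout replicate 2 were female and the other hearts male.

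Mitochondrial fatty acid oxidation takes an activated fatty acid through the carnitine shuttle into the mitochondrion and shortens it by repeated rounds of dehydrogenation, hydration, second dehydrogenation and thiolysis. Each round yields acetyl-CoA, which the TCA cycle oxidizes while it reduces the electron carriers of the respiratory chain. The heart is known to rely more on glucose and lactate before birth and to turn to fatty acids after it.

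The TCA cycle genes were lower in the knockouts almost throughout: 11 of 14 fell, 0 rose (0 also at an unadjusted p of 0.05 in limma), and the median log2 fold change was -0.30. Of the 28 genes of fatty acid uptake and oxidation, 6 fell and 1 rose, with a median of -0.03. Over all genes tested the median was 0.00, with 17.2% called in either direction, 8.56% called lower and 8.61% called higher. A call is a Benjamini-Hochberg adjusted p under 0.05 in limma over all 15556 genes. All 14 TCA estimates were below 0, with the exception of Idh2 under quantile normalization (0.0153). In a limma test against a fold change of 1.2 none of the 18 member calls passed, with 4 fatty acid and 4 TCA genes past an unadjusted p of 0.05. The 7 calls among 28 fatty acid genes, in either direction, lie nearer to the share over all genes than do the 11 among 14 TCA genes. Without the uptake genes 6 of 25 fell, beside 8.56% called lower over all genes, with a median of -0.08. Of these 25, 0 rose, though Acadsb was higher at an unadjusted p of 0.05 in limma.

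**Figure D1:**
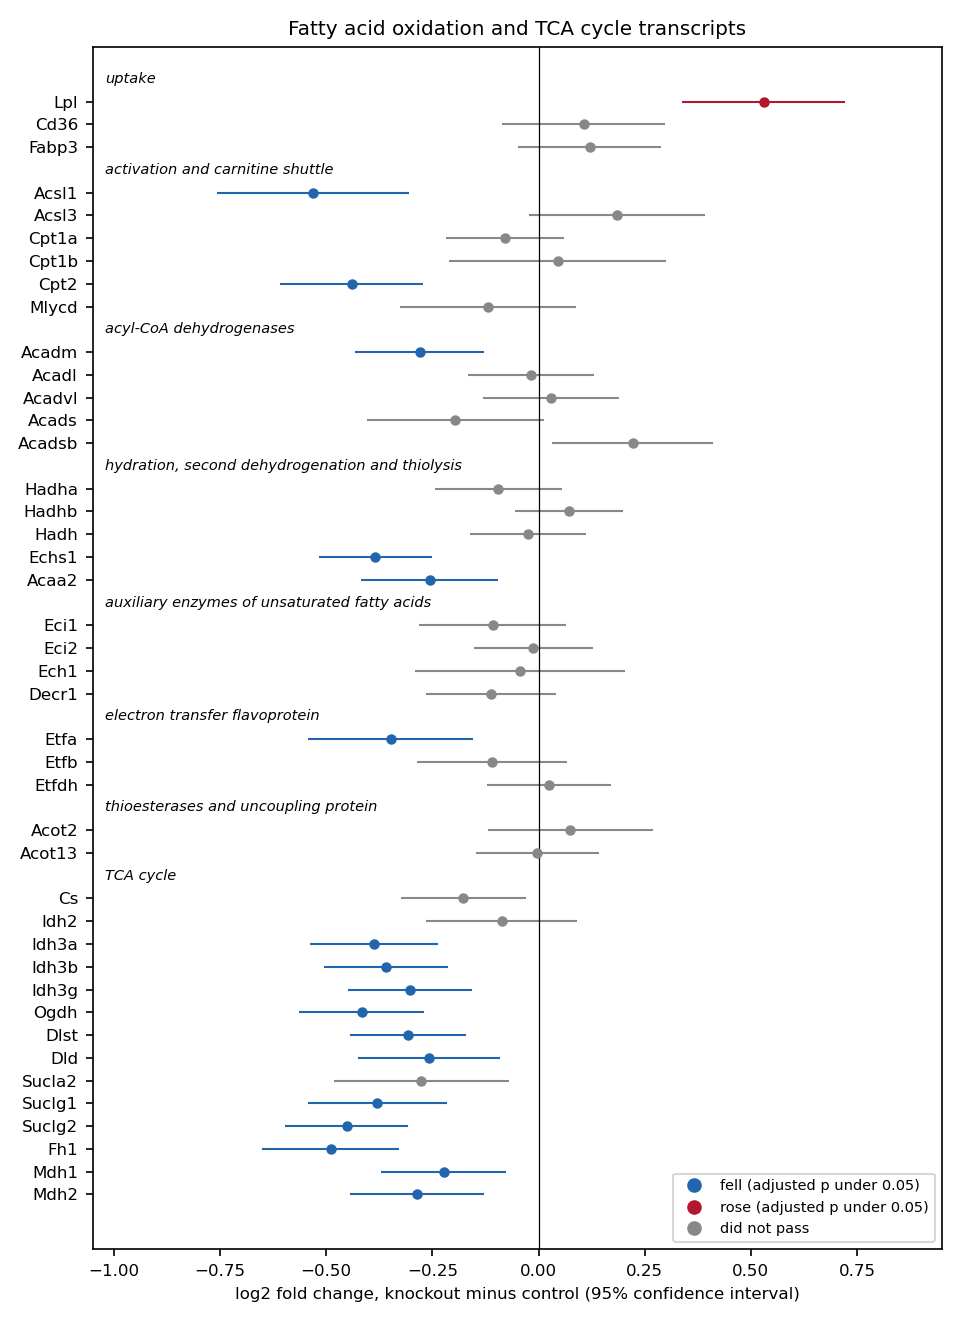
Log2 fold change (knockout minus control) of each member by role, with the 95% confidence interval from limma, for 3 control and 3 knockout hearts. Blue points fell, the red point rose and grey points did not pass. The TCA cycle genes lie on the left of 0, from -0.49 for Fh1 to -0.09 for Idh2 (0.0153 under quantile normalization), whereas the fatty acid genes spread from -0.53 for Acsl1 to 0.53 for Lpl.

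The groups did not overlap, with all 3 knockouts below all 3 controls, for 12 of 14 TCA genes and 7 of 28 fatty acid genes. The opposite order held for 0 TCA genes and 3 fatty acid genes. Among all genes tested, 35.4% did not overlap, 17.9% with the knockouts lower and 17.5% with the knockouts higher.

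Uptake opens the pathway. Lipoprotein lipase, encoded by Lpl (chr8:68880491-68907448 in GRCm38), frees fatty acids from circulating lipoproteins at the vessel wall. Lpl counted 11961, 10369 and 11363 normalized reads in control hearts, against 15462, 18125 and 15133 in knockout hearts. Every knockout exceeded every control, and Lpl rose by 0.53 (SE 0.09, limma adjusted p = 0.00334), to 145% of the control mean. It was the only member called higher when all 6 hearts were fitted by group alone. Cd36, the fatty acid translocase of the plasma membrane, counted 8468, 7363 and 8019 against 8638, 9423 and 7659, and the groups overlapped (0.11, 95% confidence interval -0.09 to 0.30, adjusted p = 0.443). Fabp3, which carries fatty acids through the cytosol of heart muscle, gave 0.12 (95% confidence interval -0.05 to 0.29, adjusted p = 0.307). Its value is uncertain, since a pseudogene copy, Fabp3-ps1, was listed at a mean of 3958 beside 9810 for Fabp3, and the 2 may share reads.

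The rise of Lpl sat beside higher markers of several, but not all, types of cells that are not cardiomyocytes. Macrophage markers summed to 1231 to 1365 in the controls and 1831 to 2413 in the knockouts, and 5 of 7 rose (median 0.82). Endothelial and endocardial markers summed to 19427 to 19655 against 22455 to 24807, and 4 of 8 rose (median 0.29). Fibroblast markers summed to 89796 to 104446 against 116921 to 147159, and 4 of 7 rose (median 0.50). Over all genes tested 8.61% were called higher and 8.56% lower. Epicardial (median 0.27) and mural markers (median 0.26) had 0 calls in limma, with 2 of 6 and 4 of 5 higher at an unadjusted p of 0.05. Erythroid markers went the other way, with sums of 37961 to 66153 in the controls and 30574 to 37888 in the knockouts (median -0.52). They had 0 calls of 8 in limma, with 5 lower and 1 higher at an unadjusted p of 0.05. The part of any of these cells in the rise of Lpl was not tested. In RNA of a whole heart, more or fewer cells of a type and a change of RNA per cell cannot be told apart.

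Fatty acids are next joined to CoA and passed through the carnitine shuttle. Here 2 of 6 genes fell, beside 8.56% called lower over all genes. Acsl1 (chr8:46471037-46536051), the main long-chain acyl-CoA synthetase of heart muscle, counted 6061, 4836 and 6508 in control hearts, against 3881, 4208 and 3875 in knockout hearts. The knockouts lay below all controls, and Acsl1 fell by 0.53 (SE 0.10, limma adjusted p = 0.00682), to 68.7% of control, the largest fall of any member. Acsl1 shares 1039 exon bases with a gene on the opposite strand, and the labels do not say whether counting used strand. Acsl3, a synthetase linked to lipid droplets, counted 2632, 2749 and 2131 against 2750, 2800 and 2940 and did not pass (0.18, SE 0.09, adjusted p = 0.205).

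Cpt2 (chr4:107903981-107923610), the carnitine palmitoyltransferase of the inner membrane, counted 1267, 1262 and 1362 against 908, 926 and 1036. Each knockout was lower than each control, and Cpt2 fell by 0.44 (SE 0.08, limma adjusted p = 0.00425), to 73.8% of control. The outer-membrane carnitine palmitoyltransferases, which set the rate of entry, did not pass. Cpt1a, the form common to many tissues, counted 1419, 1367 and 1367 against 1287, 1299 and 1343 (-0.08, 95% confidence interval -0.22 to 0.06). Cpt1b, the muscle form, counted 269, 344 and 340 against 345, 322 and 311 (0.04, 95% confidence interval -0.21 to 0.30), and it shares 2744 exon bases with a read-through gene on the same strand, so its level is uncertain. Mlycd, which breaks down the shuttle inhibitor malonyl-CoA, gave -0.12 (adjusted p = 0.423).

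The first dehydrogenation of each round is carried out by acyl-CoA dehydrogenases of different chain lengths. Of these 5 genes 1 fell, beside 8.56% called lower over all genes. Acadm (chr3:153922357-153944632), the medium-chain enzyme, counted 8722, 8313 and 9014 in control hearts, against 7603, 7163 and 6701 in knockout hearts. The groups were separate, and Acadm fell by 0.28 (SE 0.07, limma adjusted p = 0.0205). The long-chain enzymes gave estimates near 0: -0.02 for Acadl (95% confidence interval -0.17 to 0.13) and 0.03 for Acadvl (-0.13 to 0.19), the latter with 1151 exon bases shared with Dvl2 on the opposite strand. Acads, for short chains, gave -0.20 (adjusted p = 0.182), and Acadsb, for short branched chains from isoleucine, gave 0.22 (adjusted p = 0.103).

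Of the 5 enzymes that complete a round, 2 fell, beside 8.56% called lower over all genes. Echs1 (chr7:140105710-140116476), the short-chain enoyl-CoA hydratase, counted 4116, 4013 and 4360 against 3195, 3206 and 3160, so that the 3 knockouts were nearly equal and all below the controls. It fell by 0.38 (SE 0.06, limma adjusted p = 0.00268), to 76.6% of control. Acaa2 (chr18:74779197-74806208), the thiolase that releases acetyl-CoA, counted 6604, 6975 and 7823 against 5946, 5870 and 6059 and fell by 0.26 (SE 0.07, limma adjusted p = 0.0365). Hadha and Hadhb, the alpha and beta subunits of the mitochondrial trifunctional protein for long chains, did not pass. Hadha counted 11712, 11941 and 13131 against 11181, 11486 and 11751 (-0.09, 95% confidence interval -0.24 to 0.05). Hadhb counted 5505, 5567 and 5791 against 5964, 5838 and 5924, with every knockout above every control (0.07, 95% confidence interval -0.06 to 0.20). Hadh, the dehydrogenase for shorter chains, gave -0.03 (adjusted p = 0.82).

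The enzymes that handle double bonds already present in fatty acids, Eci1, Eci2, Ech1 and Decr1, had 0 calls in limma, and 0 at an unadjusted p of 0.05. Their estimates ran from -0.11 to -0.01, with Eci2 at 0.0179 under equal totals. Decr1, the dienoyl-CoA reductase, had the smallest p of the 4, with 1886, 1820 and 1908 in control hearts, against 1839, 1752 and 1611 in knockout hearts (-0.11, adjusted p = 0.302). The thioesterases Acot2 (0.07, adjusted p = 0.602) and Acot13 (-0.00, adjusted p = 0.981), which release fatty acids from CoA, likewise had 0 calls, and 0 at an unadjusted p of 0.05. Acot2 counted 601, 635 and 724 against 661, 701 and 697, and it has a near-identical neighbour, Acot1, so reads may be split between them.

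Electrons from the dehydrogenases pass to the electron transfer flavoprotein, whose alpha subunit is encoded by Etfa (chr9:55454508-55512243). Etfa counted 5869, 5036 and 5575 against 4662, 4472 and 3834, with no overlap, and fell by 0.35 (SE 0.09, limma adjusted p = 0.0231). The beta subunit gene Etfb counted 4059, 4905 and 4756 against 4394, 4229 and 4055, with overlap (-0.11, adjusted p = 0.383), and it shares 617 exon bases with another gene on the same strand, so its level and its ratio to Etfa are uncertain. Etfdh, the oxidoreductase that hands the electrons to ubiquinone, gave 0.02 (adjusted p = 0.844). Of the fatty acid calls, those of Lpl, Acsl1, Cpt2 and Echs1 passed without each heart in turn. Acadm was lost without control replicate 3, knockout replicate 2 or knockout replicate 3 (adjusted p up to 0.0835), Etfa without any of these or control replicate 1 (up to 0.0735), and Acaa2 without any heart but control replicate 1 (up to 0.136). These 3 calls were also lost with sex as a term.

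The TCA cycle begins where citrate synthase joins acetyl-CoA to oxaloacetate. Cs counted 22770, 23876 and 24794 normalized reads in control hearts, against 20659, 21451 and 21057 in knockout hearts. All knockouts were below all controls, yet Cs did not pass (-0.18, 95% confidence interval -0.32 to -0.03, adjusted p = 0.0956). Isocitrate is then oxidized by an NAD-dependent enzyme of subunits encoded by Idh3a, Idh3b and Idh3g, or by the NADP-dependent enzyme encoded by Idh2. All 3 genes of the NAD-dependent enzyme fell. Idh3a (chr9:54586334-54604661), the catalytic alpha subunit, counted 13550, 12295 and 13057 against 10417, 9856 and 9465 and fell by 0.39 (SE 0.07, limma adjusted p = 0.00454).

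The other subunits of that enzyme moved with it. Idh3b (chr2:130279309-130284547) counted 8614, 8275 and 8931 against 7120, 6620 and 6395 and fell by 0.36 (SE 0.07, limma adjusted p = 0.00574). Idh3g (chrX:73778963-73786897) counted 7093, 6956 and 7742 against 6089, 5878 and 5695 and fell by 0.30 (SE 0.07, limma adjusted p = 0.0121). In none of the 3 genes did a knockout reach a control. Idh2 counted 35894, 40851 and 40639 against 35259, 36549 and 38590, with overlap, and did not pass (-0.09, 95% confidence interval -0.27 to 0.09, adjusted p = 0.501).

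All 3 components of the alpha-ketoglutarate dehydrogenase complex fell. Ogdh (chr11:6291633-6356642), which decarboxylates alpha-ketoglutarate, counted 16082, 16709 and 17738 in control hearts, against 12199, 12606 and 13029 in knockout hearts. It fell by 0.42 (SE 0.07, limma adjusted p = 0.00293), to 74.9% of control. Dlst (chr12:85110833-85134845), which transfers the succinyl group, counted 10985, 11183 and 11755 against 9421, 9054 and 8935 and fell by 0.31 (SE 0.06, limma adjusted p = 0.0084). Dld (chr12:31331277-31351453), the dihydrolipoamide dehydrogenase that this complex shares with the pyruvate and branched-chain complexes, counted 8633, 7946 and 8349 against 7583, 6936 and 6378. It fell by 0.26 (SE 0.08, limma adjusted p = 0.0416). The groups were separate for each of the 3 genes.

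Succinyl-CoA is split by succinyl-CoA ligase, made of a shared alpha subunit, Suclg1, and a beta subunit that is GTP-specific, Suclg2, or ATP-specific, Sucla2. Suclg1 (chr6:73248382-73276911) counted 4986, 5007 and 5455 against 4301, 3888 and 3699 and fell by 0.38 (SE 0.07, limma adjusted p = 0.00723). Suclg2 (chr6:95473009-95718800) counted 3005, 2848 and 3210 against 2190, 2247 and 2183 and fell by 0.45 (SE 0.07, limma adjusted p = 0.00195), the smallest p of any member. Sucla2 counted 6638, 5211 and 5778 against 5247, 4622 and 4644. Knockout replicate 1 was above control replicate 2 for Sucla2, which did not pass (-0.28, SE 0.09, adjusted p = 0.0674).

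Fumarase and malate dehydrogenase close the cycle. Fh1 (chr1:175600374-175625635), fumarase, counted 6813, 6616 and 7390 in control hearts, against 5225, 5033 and 4580 in knockout hearts, all of them below the controls. It fell by 0.49 (SE 0.07, limma adjusted p = 0.00218), to 71.3% of control, the largest fall among the TCA genes. Mdh2 (chr5:135778480-135790398), the mitochondrial malate dehydrogenase, counted 16426, 17243 and 19032 against 14586, 14371 and 14183 and fell by 0.29 (SE 0.07, limma adjusted p = 0.0224). Mdh1 (chr11:21556787-21572367) encodes the cytosolic form, which works in the malate-aspartate shuttle rather than in the cycle itself. It counted 31534, 30223 and 30733 against 27062, 26515 and 25644 and fell by 0.22 (SE 0.07, limma adjusted p = 0.043).

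**Figure D2:**
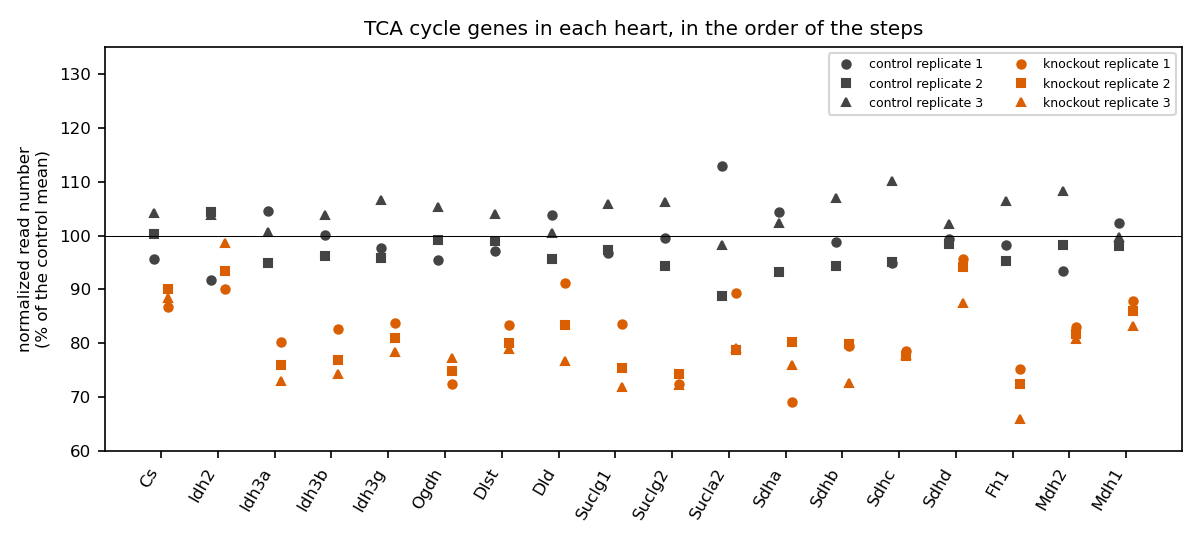
Normalized reads of each TCA cycle gene in each heart, as percent of that gene's control mean, in the order of the steps, with the succinate dehydrogenase genes added. Grey symbols are the 3 controls and orange symbols the 3 knockouts. Apart from Idh2 and Sucla2, every gene shows all knockouts below all controls.

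Idh3a, Idh3b, Ogdh, Suclg1, Suclg2 and Fh1 passed without each heart in turn, whereas the count of TCA calls came to 6 without knockout replicate 2 and to 8 without control replicate 3. Idh3g and Dlst just missed the threshold without knockout replicate 2 (adjusted p = 0.0584 and 0.0507). Dld was lost without any heart but knockout replicate 1, Mdh2 without any but control replicate 1 and knockout replicate 1, and Mdh1 without any heart, and all 3 were lost with sex as a term. Of the cardiomyocyte markers, 2 of 10 fell, Actc1 by 0.38 and Actn2 by 0.31, beside 8.56% called lower over all genes. Their median was -0.17, with 8 estimates below 0 and 2 above it, Tnni3 (0.04) and Myl3 (0.04). The markers summed to 1048910 to 1096410 in the controls and 890463 to 994145 in the knockouts. Actc1 alone had a mean of 280080 in the controls and 216420 in the knockouts. The part of cardiomyocyte content in the TCA result was not tested.

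Promoters were set out because ETS factors, among them GABP, are known to bind promoters of many nuclear genes for mitochondrial proteins. RefSeq promoter windows (GRCm38.p6, 250 bases before to 50 after the start) were matched for 36 of the 42 members. The ETS core CGGAAG, on either strand, was found in 10 of 36 members and in 32.9% of tested genes. Within the members it was found in 7 of 13 TCA genes and in 8 of 15 called genes, the latter a set picked by these same data. The windows below are 5 of those 8, without Echs1, Idh3b and Mdh2, and show the core in capitals (CTTCCG is the same core on the opposite strand), each written 5′ to 3′ on the gene's own strand.
Fh1, chr1:175625735-175625845, minus strand: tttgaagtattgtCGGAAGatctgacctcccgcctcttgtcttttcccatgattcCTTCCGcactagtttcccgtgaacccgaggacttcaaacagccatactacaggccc
Dlst, chr12:85110713-85110842, plus strand: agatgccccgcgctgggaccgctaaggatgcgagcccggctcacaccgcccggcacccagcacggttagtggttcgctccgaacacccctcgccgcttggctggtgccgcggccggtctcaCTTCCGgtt
Idh3g, chrX:73786898-73787017, minus strand: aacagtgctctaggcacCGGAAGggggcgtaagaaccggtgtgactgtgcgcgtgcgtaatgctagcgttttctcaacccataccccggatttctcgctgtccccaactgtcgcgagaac
Ogdh, chr11:6291397-6291496, plus strand: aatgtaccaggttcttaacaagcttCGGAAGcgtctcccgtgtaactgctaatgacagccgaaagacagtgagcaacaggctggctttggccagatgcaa
Cpt2, chr4:107923590-107923709, minus strand: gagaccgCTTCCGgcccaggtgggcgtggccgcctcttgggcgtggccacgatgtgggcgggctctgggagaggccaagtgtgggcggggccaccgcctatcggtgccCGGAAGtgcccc

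The core lies near the start in Dlst. It stands at both ends of the Cpt2 stretch, where the right-hand copy is also near the start. Both orientations occur in Fh1 and in Cpt2. The longer GABP element CCGGAAGTG, which contains the ETS core, was found in 2 of 36 members, Cpt2 and Dlst, and in 4.58% of tested genes. The estrogen-related receptor (ERR) element TCAAGGTCA was found in 0 of 36 members and in 0.327% of tested genes. The nuclear receptor half-site AGGTCA, which lies within the ERR element, was found in 9 of 36 members and 14.5% of tested genes. The NRF1 core GCGCATGCG was found in 3 of 36 members and 3.90% of tested genes, and the GC box GGGCGG in 26 of 36 and 67.4%. Both strands were searched for each motif. A match is a string of letters in a 300-base window and says nothing of binding in these hearts. Gabpa, a gene of GABP, did not pass (-0.03, limma adjusted p = 0.842). The part of any of these factors in the falls was not tested.

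Per kb of transcript, summed TCA transcripts stood at 94329 ± 3158 normalized reads (SD, n = 3) in the controls and 79717 ± 721 (SD, n = 3) in the knockouts, 84.5% of control. The 25 genes of activation and oxidation summed to 56466 ± 2012 and 51950 ± 1231 (SD, n = 3 each), or 92.0%. The 3 uptake genes summed to 16479 ± 306 and 18898 ± 979 (SD, n = 3 each), or 115%. The TCA sum over the activation and oxidation sum was 1.66, 1.69 and 1.66 in control hearts, against 1.52, 1.53 and 1.56 in knockout hearts, so every knockout lay below every control. These sums are descriptions without a test, and they weight abundant genes most.

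**Figure D3:**
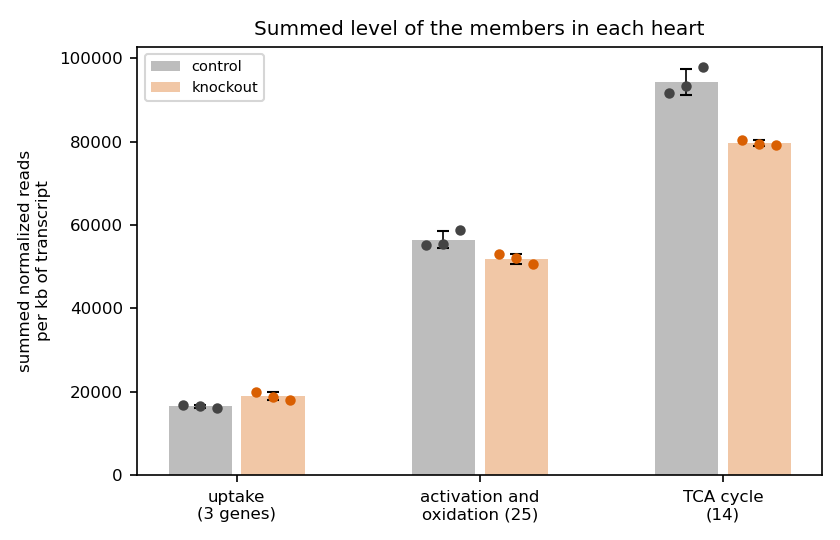
Summed normalized reads per kb of transcript over the uptake genes, the genes of activation and oxidation and the TCA cycle genes. Bars give the mean and error bars the SD of 3 hearts, and points are single hearts. The TCA bars stand at 94329 and 79717, with no knockout point reaching a control point.

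Levels per kb of transcript, as means of the 6 hearts, spanned a wide range. Idh2 was highest at 21756, and its lowest heart (20206) exceeded the highest heart of any other member. Mdh1 (13487), Fabp3 (11920) and Mdh2 (10971) followed and overlapped between hearts. Acadl (7951) and Cs (7667) came next and also overlapped. The order inside both sets depended on the group: Mdh2 (12065) was above Fabp3 (11411) and Cs (8139) above Acadl (7996) in the control means, and both orders were the other way round in the knockout means (9876, 12429, 7196 and 7906 for the same genes). The 3 subunits of the NAD-dependent isocitrate dehydrogenase lay close together, at 4940 for Idh3g, 4761 for Idh3a and 4740 for Idh3b. In contrast, Suclg2 (776) was well below its alternative Sucla2 (2403) and its partner Suclg1 (2999). The shuttle genes were among the lowest, with 475 for Cpt2, 312 for Cpt1a, 227 for Mlycd and 111 for Cpt1b.

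Ratios of members that share a step, a complex or a role were taken inside each heart, where scaling between hearts cancels. Of 10 ratios, 5 did not overlap between the groups. Among single genes tested 35.4% did not overlap, and no share was computed for other pairs. Each of the 5 had an exact two-sided permutation p of 0.1, the smallest that 3 against 3 hearts allow. After Benjamini-Hochberg adjustment over the 10 it was 0.2, so none could pass. Ratios that hold Lpl, Acsl1 or Idh3a contain a gene already called above and are not separate support. The log2 ratio of Acsl1 to Acsl3 was 1.203, 0.81 and 1.61 in control hearts, against 0.50, 0.59 and 0.40 in knockout hearts, a difference of -0.72. Acsl1 thus made up less of the pair in every knockout than in any control. The ratio of Lpl to Cd36 was 0.50, 0.49 and 0.50 against 0.84, 0.94 and 0.98, a difference of 0.42. Idh2 to Idh3a was higher in the knockouts by 0.30, from 1.41, 1.73 and 1.64 to 1.76, 1.89 and 2.03. Hadhb to Hadha was higher by 0.17, and Acads to Acadvl differed by -0.22.

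The other 5 ratios overlapped. They were Idh3b to Idh3g (-0.06, exact permutation p = 0.2), Suclg2 to Sucla2 (-0.18, p = 0.3), Etfb to Etfa (0.24, p = 0.3), Mdh2 to Mdh1 (-0.06, p = 0.6) and Cpt1b to Cpt1a (0.12, p = 0.7). Among these pairs, the muscle and general forms of the shuttle enzyme kept overlapping ratios, at -2.39, -1.99 and -2.004 in control hearts, against -1.90, -2.01 and -2.11 in knockout hearts.

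**Figure D4:**
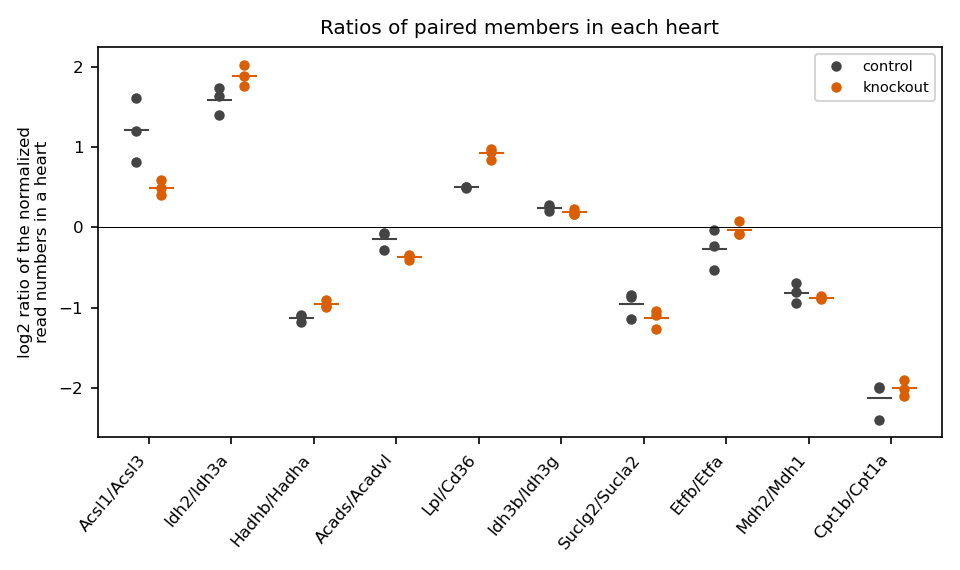
Log2 ratio of the normalized reads of paired members in each heart, grey for 3 controls and orange for 3 knockouts. Acsl1 over Acsl3 shows the largest difference of means, -0.72, and Cpt1b over Cpt1a overlaps.

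Neighbouring steps were read from 10 lists with 112 genes tested, of which 28 fell and 2 rose. Over all genes 8.56% were called lower and 8.61% higher, the shares against which each list below is read. Of the genes of succinate dehydrogenase, which oxidizes succinate to fumarate in the cycle, 3 of 4 fell, 0 rose (0 also at an unadjusted p of 0.05), and the median was -0.36. The flavoprotein subunit gene, Sdha, counted 20775, 18568 and 20356 against 13756, 15962 and 15122 and fell by 0.41 (SE 0.08, limma adjusted p = 0.00648). Sdhb fell by 0.37 and Sdhc by 0.36, while Sdhd did not pass (-0.12).

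Of 14 genes of pyruvate entry 4 fell and 0 rose (8 lower and 1 higher at an unadjusted p of 0.05), with a median of -0.18. The genes that fell include inhibitors: the pyruvate dehydrogenase kinases Pdk1 (by 0.50, SE 0.07), Pdk2 (by 0.50, SE 0.09) and Pdk3 (by 0.29, SE 0.07) switch pyruvate dehydrogenase off, and Pcx (by 0.51, SE 0.12) makes oxaloacetate from pyruvate. Pdk1 counted 6079, 5364 and 5577 in control hearts, against 4038, 4034 and 3922 in knockout hearts (limma adjusted p = 0.00128). The fourth kinase gene, Pdk4, counted 967, 920 and 824 against 1001, 1152 and 977, with every knockout above every control, and did not pass (0.21, SE 0.09, limma adjusted p = 0.146). Genes of the pyruvate dehydrogenase complex itself, Pdha1 (-0.19), Pdhb (-0.17), Dlat (-0.08) and Pdhx (-0.14), did not pass. For Pdha1, Pdhb and Dlat every knockout lay below every control, whereas the groups overlapped for Pdhx. The unadjusted p in limma was 0.0237 for Pdha1 and 0.0308 for Pdhb. Dld, which this complex shares, fell as described above.

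Of 13 genes that feed or drain the cycle 4 fell and 0 rose (6 lower and 0 higher at an unadjusted p of 0.05), with a median of -0.15. Got1, the cytosolic aspartate aminotransferase of the malate-aspartate shuttle, counted 6358, 6067 and 7655 against 3857, 4020 and 3483. It fell by 0.82 (SE 0.09, limma adjusted p = 0.000776), to 56.6% of control. Its mitochondrial partner Got2 fell by 0.40 (SE 0.07), and Ogdhl, an alternative to Ogdh, by 0.39 (SE 0.09). Mdh1 and Mdh2, described above, are the malate arm of that shuttle.

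Other genes of fatty acid handling are read against the 17.2% called over all genes. Of 12 further genes of uptake and activation 2 fell, Acsl5 by 0.29 and Acsl4 by 0.45, and 1 rose. That gene was Fabp5, a fatty acid carrier found in many cells beside muscle, which counted 4259, 4206 and 4002 against 5690, 6006 and 5577 (0.47, SE 0.06, limma adjusted p = 0.00129). Of 10 genes listed as further mitochondrial ones 2 fell, Acad9 by 0.24 and Nudt7, whose CoA diphosphatase is in fact peroxisomal, by 0.47, and Ucp2, an uncoupling protein abundant in macrophages, rose by 0.38. The part of macrophages and endothelium in the rises of Fabp5 and Ucp2 was not tested. The list of peroxisomal oxidation, which does not hold Nudt7, had 1 fall among 13 genes, Hsd17b4 by 0.22, and a median of 0.02. Lipid storage had 1 fall among 11, Mgll, which splits monoacylglycerol, by 0.58. Of the malonyl-CoA producers, Acaca fell by 0.50 and Acacb, the mitochondrial form, gave -0.05.

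Branched-chain amino acid breakdown also ends in acetyl-CoA and succinyl-CoA. It had 8 falls and 0 rises among 18 genes (9 lower and 0 higher at an unadjusted p of 0.05), with a median of -0.21. Bckdhb, a subunit of the branched-chain keto acid dehydrogenase, fell by 0.57 (SE 0.07, limma adjusted p = 0.00129). Pcca fell by 0.54 and Mut by 0.50, which lead from propionyl-CoA to succinyl-CoA.

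Regulators of these genes were mostly not called: 2 of 15 fell and 0 rose, beside 8.56% called lower over all genes, and the median was -0.23. At an unadjusted p of 0.05 in limma, 7 were lower and 1 was higher. Nrf1 (-0.30, limma adjusted p = 0.0532) and Tfam (-0.23, limma adjusted p = 0.0548) lay below all controls in every knockout but did not pass. Ppargc1b, a coactivator of mitochondrial genes, counted 384, 394 and 450 against 244, 248 and 223. It lay below the controls in every knockout, at 58.2% of their mean. Esrrb fell by 0.45 (SE 0.11, limma adjusted p = 0.0231). Ppara, the nuclear receptor best known for fatty acid oxidation genes, counted 264, 174 and 138 against 156, 123 and 100, with overlap (-0.57, SE 0.23, adjusted p = 0.125).

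**Figure D5:**
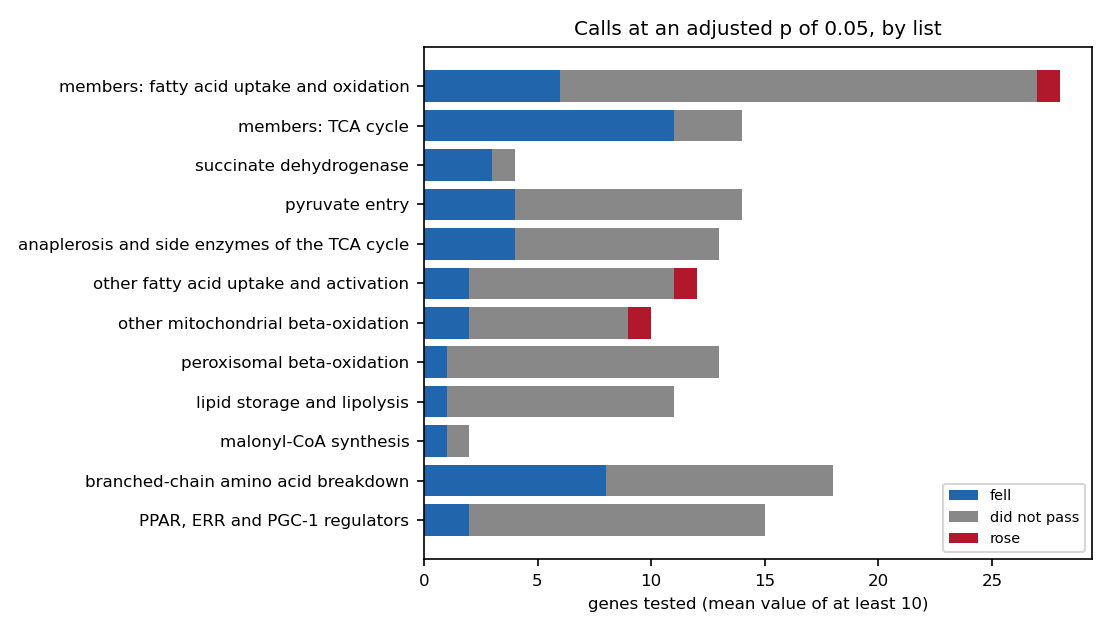
Number of genes tested in each list, split into those that fell, did not pass or rose at a limma adjusted p of 0.05. The bars of the TCA cycle and of succinate dehydrogenase are mostly blue, with 11 of 14 and 3 of 4, whereas the bars of peroxisomal oxidation and lipid storage each hold 1 fall.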

How the data were processed

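Poly(A) RNA of 6 embryonic mouse hearts, 3 controls and 3 knockouts, was sequenced from stranded paired-end libraries, per the labels' protocols. The tools named were STAR 2.4.2a, featureCounts 1.5.0, Trimmomatic, DESeq and DESeq2, with build mm10, per the submitters' processing notes. Their roles and the use of strand are not given in the sources used here. The deposited values are treated as a score: rounded reads per gene after division by the authors with 1 factor for each heart, as read from the steps between low values. They are not raw counts, so the count test allowed for in the design was not run. Its alternative was fitted in R 4.3.3 with limma 3.58.1, using a variance trend and log2(value + 1), on genes whose mean was at least 10. Fold changes on that scale understate changes of low genes. P-values were adjusted over all 15556 genes at 0.05. The method was tested on simulated data with known changes and a spread between replicates set in advance. It recovered 10.45% of 1.25-fold, 62.69% of 1.5-fold and 93.94% of 2-fold changes. Genes that did not pass may therefore hold small changes.

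The members and lists were chosen with earlier results of these data known. Every member past the threshold is given with its values, subgroups without one by the smallest p, and up to 3 genes of each other list. Pathway lists had 114 genes matched and 112 tested. Some genes of neighbouring pathways are not reported here. Values per kb use the longest principal coding transcript of GENCODE M21 (GRCm38). Confidence intervals are at 95%. Alternatives were pseudocounts of 0.1 and 10, no filter, at least 50 in each of 3 hearts, limma-voom, equal totals, median of ratios, quantile normalization, a replicate block, sex as a term, a test against a fold of 1.2, and leaving out each heart. Ratios used exact permutation tests in Python 3.11.15 with scipy 1.17.1. Replicates of a group differed beyond sampling noise, so none was counted as a repeat.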

Additional observations from a re-analysis of the deposited data

How the results depend on the processing

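The median of all genes moved by at most 0.03 under any scaling, yet scaling ended calls: equal totals left 9 of 11 TCA calls, without Dld and Mdh1, and gave 1091 lower and 1569 higher among all genes, and quantile normalization left 10, without Dld. Of the 18 called members, 10 passed under all 16 alternatives other than the test against a fold of 1.2: Lpl, Acsl1, Cpt2, Echs1, Idh3a, Idh3b, Ogdh, Suclg1, Suclg2 and Fh1. That fold test called 0 fatty acid and 0 TCA members (4 of each at an unadjusted p of 0.05), 3 genes of the pathway lists (30 otherwise) and 418 of all genes (2670 otherwise). With sex as a term 4 fatty acid members changed instead of 7. Without a filter on low values 1755 genes were called, with 8 TCA and 5 fatty acid members, and Etfa, Acaa2, Dld, Mdh1 and Mdh2 were lost. Leaving out each heart gave 4 to 8 fatty acid members (4 without control replicate 3, knockout replicate 2 or knockout replicate 3), 6 to 11 TCA members, 21 to 28 pathway genes and 1305 to 2370 of all genes, the lowest without knockout replicate 2 and the next, 1669, without control replicate 3, the shallowest library. Whether the replicate numbers pair the hearts is not stated in the labels. Same-numbered hearts correlated at -0.04, -0.37 and 0.05 in their deviations, which cannot settle it with 3 hearts in each group. Sucla2 passed with the replicate block and without control replicate 2 or knockout replicate 1, Acadsb with the block and without control replicate 1, and Acads without control replicate 1. With the replicate block 8 fatty acid and 12 TCA members, 39 pathway genes and 3530 of all genes changed.

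Members that changed sign all had estimates near 0. With equal totals Acadl gave 0.0127, Hadh 0.00514, Eci2 0.0179 and Acot13 0.0275. With quantile normalization Acadl gave 0.0167, Acot13 0.0109 and Idh2 0.0153. With sex as a term Ech1 gave 0.0365 and Acot13 0.0166. Leaving out each heart gave ranges that crossed 0: Cpt1b -0.0702 to 0.107, Acadl -0.0581 to 0.0278, Acadvl -0.00887 to 0.0907, Eci2 -0.0389 to 0.0216, Ech1 -0.175 to 0.0327, Etfdh -0.0278 to 0.0557, Acot13 -0.0391 to 0.0468 and the log2 ratio of Cpt1b to Cpt1a from -0.00822 to 0.196. The causes were not tested.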

Other observations

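Glud1, glutamate dehydrogenase, which feeds glutamate into the cycle as alpha-ketoglutarate, was singled out after its values were seen. It counted 2919, 262 and 1518 normalized reads in control hearts, against 2478, 1406 and 2432 in knockout hearts, with control replicate 2 the lowest of the 6 hearts.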
